A study of Homo sapiens with 38 samples.

Results

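The genes described here were the zinc finger genes of human chromosome 19, taken as every protein-coding gene of chr19 in GENCODE 44 (build hg38) whose symbol begins with ZNF and a digit. There were 249 of them among 20046 protein-coding genes in the genome, beside 1227 other protein-coding genes on the same chromosome. A gene was called occupied in a list of peaks when any base of a peak lay within 1000 bp of the start of any of its transcripts. The rule used only names and positions, and no measured value entered it.

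Most ZNF genes of chr19 encode KRAB zinc finger proteins, which join a KRAB domain to an array of DNA-binding zinc fingers. The KRAB domain recruits the corepressor TRIM28 and through it the histone methyltransferase SETDB1, and many of these proteins silence transposable elements. The family grew by tandem duplication, so its genes stand in clusters along the chromosome and neighbouring promoters can be close copies of each other. Sp1 is itself a zinc finger factor, with a DNA-binding domain that reads GC boxes (GGGCGG) in many CpG-rich promoters.

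The measurements were CUT&RUN, in which an antibody directs a nuclease to a protein in permeabilized cells so that the DNA beside it is released and sequenced. All 38 libraries came from U-2 OS osteosarcoma cells in which the endogenous Sp1 gene carried V5 and Halo tags, a knock-in line that went back to a single clone (D5). That line without a transgene was CTRL, and the other lines also carried a doxycycline-inducible construct at the AAVS1 locus. The constructs were Sp1 WT, the Sp1 DBD (Sp1 without its long N-terminal disordered region), EWS IDR-Sp1 DBD (the disordered region of EWS on that domain), the CTCF DBD and LacI alone or joined to the Sp1 IDR, the Sp1 DBD Mutant (a truncation to a single zinc finger) and SNAP-NLS (the tag with a nuclear signal). Every construct was fused to SNAPf and FLAG, and the labels give the same treatment for every sample, CTRL included: 1 µg/ml doxycycline for 36 h, a sort for transgene expression and a further 36 h with the drug. Mouse anti-FLAG was used in 10 lines, rabbit anti-FLAG in CTRL, and rabbit and mouse anti-V5, which detect the endogenous tagged Sp1, in CTRL and in the Sp1 WT, Sp1 IDR-LacI and Sp1 IDR-CTCF DBD lines. Each of the 19 combinations of line and antibody had 2 biological replicates and yielded 1 list of reproducible peaks made from both.

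Read numbers were not analysed here, so the lists are described by their length. The longest was Sp1 WT anti-FLAG with 5151 peaks, then the Sp1 DBD with 3277 and EWS IDR-Sp1 DBD with 2535, and the 8 anti-V5 lists had 1332 to 2172. The other 8 anti-FLAG lists held 22 to 649 peaks. Chr19 carried 491 peaks of the Sp1 WT list, which was 9.53% of that list, and 0 peaks in the lists of Sp1 IDR-LacI, LacI, Sp1 DBD Mutant, SNAP-NLS, CTRL mouse anti-FLAG and CTRL rabbit anti-FLAG. Since a list has no replicates of its own and neighbouring genes are not independent, each share carries a 95% Wilson interval for counting error over genes alone, and no test over genes was run.

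Promoter sequence of 4 occupied and 4 unoccupied members shows what the lists were set against. These genes were picked after their values had been seen, to cover strong peaks with and without a GC box and the one gene cluster with no peak. Each line holds the 100 bases before the canonical start of the gene, 5′ to 3′ in the direction of transcription, read from hg38 and free of annotated exons. Capitals mark GGGCGG or its complement CCGCCC, and the occupied genes come first.
ZNF57, chr19:2900828-2900927, plus strand: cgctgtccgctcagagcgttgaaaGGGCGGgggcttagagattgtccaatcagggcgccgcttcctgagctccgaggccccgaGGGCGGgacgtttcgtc
ZNF841, chr19:52095766-52095865, minus strand: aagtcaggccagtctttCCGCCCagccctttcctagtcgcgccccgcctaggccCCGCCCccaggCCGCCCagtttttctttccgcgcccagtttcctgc
ZNF784, chr19:55624567-55624666, minus strand: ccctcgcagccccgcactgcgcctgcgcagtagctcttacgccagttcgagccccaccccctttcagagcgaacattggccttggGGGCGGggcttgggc
ZNF574, chr19:42076066-42076165, plus strand: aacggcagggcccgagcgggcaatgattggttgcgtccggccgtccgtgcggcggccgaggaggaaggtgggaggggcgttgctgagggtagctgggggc
ZNF91, chr19:23395472-23395571, minus strand: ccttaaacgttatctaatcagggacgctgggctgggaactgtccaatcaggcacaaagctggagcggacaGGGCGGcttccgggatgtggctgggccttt
ZNF730, chr19:23116925-23117024, plus strand: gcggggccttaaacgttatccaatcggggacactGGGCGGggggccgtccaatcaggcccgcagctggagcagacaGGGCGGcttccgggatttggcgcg
ZNF14, chr19:19733113-19733212, minus strand: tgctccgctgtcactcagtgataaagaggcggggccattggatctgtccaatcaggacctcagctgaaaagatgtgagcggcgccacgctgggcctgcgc
ZNF676, chr19:22196952-22197051, minus strand: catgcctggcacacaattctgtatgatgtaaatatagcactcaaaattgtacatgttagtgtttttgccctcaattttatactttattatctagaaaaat
The upstream stretches of ZNF91 and ZNF730 carry GC boxes, and neither gene had a peak in any list. That of ZNF574 carries no GC box, although the window from 250 bases before to 50 after the start holds 1, and the gene was in all 11 lists with over 1000 peaks.

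The ZNF genes of chr19 were occupied less often than their neighbours on the chromosome in each of those 11 long lists. Sp1 WT had a peak at 51 of 249 members, a share of 20.5% (15.9 to 25.9), against 33.9% of the other protein-coding genes of chr19 (416 of 1227) and 23.7% of all protein-coding genes. The Sp1 DBD had a peak at 30 members (12%, interval 8.57 to 16.7) against a background of 22.7%. EWS IDR-Sp1 DBD had a peak at 21 members (8.43%, interval 5.58 to 12.5) against 17.4%. In all 3 of these lists the interval of the members lay below that of the other genes. The share fell from Sp1 WT to the Sp1 DBD and EWS IDR-Sp1 DBD in both sets of genes, in the order of the list lengths.

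For endogenous Sp1, each V5 list also held a smaller share of members than of the other chr19 genes. In CTRL, rabbit anti-V5 found 28 members against a background of 22% of the other chr19 genes, and mouse anti-V5 found 24 against 21.8%. In the Sp1 WT line the antibodies found 19 members against 21% (rabbit) and 21 against 18.9% (mouse). The Sp1 IDR-LacI line gave 25 members against 22.2% and 22 against 21.4%, in the same order of antibodies. The Sp1 IDR-CTCF DBD line gave 20 members with each antibody, against 22.9% and 20.2%. As a share of members these counts ran from 7.63% to 11.2%, and the highest upper bound of an interval was 15.8%. Against all protein-coding genes the order was mixed: members were higher in CTRL with the rabbit antibody (11.2% against 10.4%) and, with the mouse antibody, in the Sp1 WT (8.43% against 6.8%), Sp1 IDR-CTCF DBD (8.03% against 7.33%) and Sp1 IDR-LacI lines (8.84% against 8.79%), and lower in the other 4 lists. In the 3 long FLAG lists members were below all protein-coding genes, which had 16.1% for the Sp1 DBD and 11.1% for EWS IDR-Sp1 DBD.

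The 8 short anti-FLAG lists held few or no members. The CTCF DBD list held 4 members (1.61%, interval 0.626 to 4.06) against 1.22% of the other chr19 genes, and the Sp1 IDR-CTCF DBD list held 1 member (0.402%) against 0.489%, so that members and background overlapped. For Sp1 IDR-LacI, LacI, Sp1 DBD Mutant, SNAP-NLS and both CTRL anti-FLAG lists the count was 0 among members and the background 0%. For a count of 0 among 249 genes the upper Wilson bound is 1.52%, and 3 counts, the floor used for a count of 0, would be 1.2%.

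**Figure D1:**
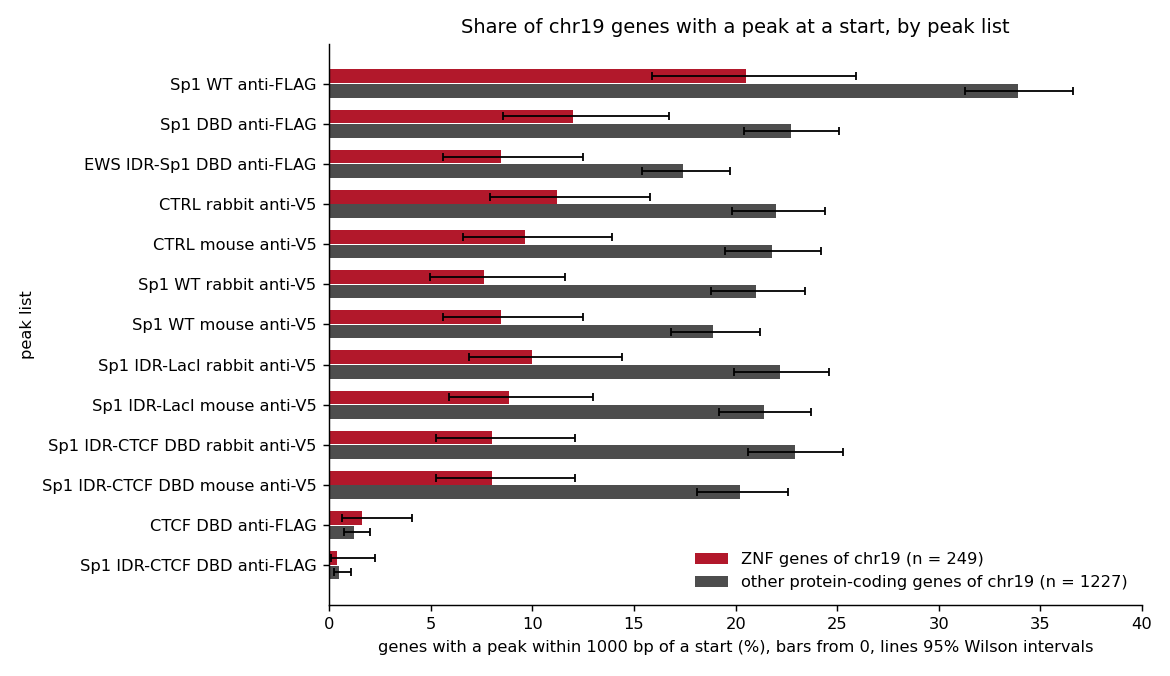
Share of chr19 genes with a peak within 1000 bp of a transcript start (percent, x axis) in 13 peak lists, for the 249 ZNF genes (red) and the 1227 other protein-coding genes (grey), with 95% Wilson intervals as lines. Red bars are shorter than grey ones in the 11 long lists, from 20.5% against 33.9% for Sp1 WT anti-FLAG downwards, and the 6 lists without peaks on chr19 are not drawn.

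Occupancy differed by position along the chromosome. Runs of ZNF gene starts with gaps of at most 500 kb formed 10 clusters of at least 5 genes that held 235 members, and 14 members stood alone or in smaller groups (scattered). Clusters are numbered here from the short-arm end. The densest for Sp1 WT was cluster 1 (ZNF554 to ZNF77), with 3 of 5 members occupied. Cluster 9 (ZNF628 to ZNF835) followed with 6 of 16 (37.5%), cluster 8 (ZNF175 to ZNF331) with 12 of 40 (30%) and cluster 2 (ZNF414 to ZNF846) with 4 of 14 (28.6%). The scattered genes had 4 of 14. Cluster 3 (ZNF653 to ZNF791) had 7 of 26 (26.9%), cluster 6 (ZNF565 to ZNF573) 6 of 26 (23.1%), cluster 5 (ZNF302 to ZNF792) 1 of 5 and cluster 7 (ZNF575 to ZNF180) 4 of 23 (17.4%). Cluster 10 (ZNF264 to ZNF446), at the end of the long arm and the largest with 43 members, had 4 (9.3%).

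Cluster 4 (ZNF101 to ZNF254) had no occupied member in any list. Its 37 members lie between chr19:19668839-24087187, in the last part of the short arm before the centromere, and include ZNF91 and ZNF93, which are known to repress SVA and L1 retrotransposons, and ZNF43 and ZNF85. Not 1 of the 3147 peaks that the 19 lists placed on chr19 fell anywhere in this span of 4.42 Mb, and neither did any of the 5550 chr19 regions in the 6 tables of differential regions. The 3 other protein-coding genes inside the span were unoccupied by Sp1 WT too. Leaving cluster 4 out, Sp1 WT occupied 51 of 212 members (24.1%, interval 18.8 to 30.2), still below the 33.9% of the other chr19 genes.

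GC boxes were present in cluster 4. In the window from 250 bases before to 50 after the canonical start, 26 of its 37 members (70.3%) held GGGCGG on either strand, beside 67.5% of the members elsewhere. The boxes were fewer around the start: within 500 bases to either side the median was 1 per gene in cluster 4, 2 at the unoccupied members elsewhere and 4 at the members occupied by Sp1 WT. CpG dinucleotides were also depleted, with a median ratio of observed to expected CpG of 0.467 in cluster 4 and 0.798 in both other sets. Sequence within 100 bp of the start was more often repeated: 30 of 37 members had 31-base words that occur more than once in hg38, beside 22 of 161 unoccupied and 8 of 51 occupied members elsewhere. The median share of such words was 7.6% in cluster 4 and 0 in both other sets, while the highest was 32.2% in cluster 4, 69.6% at unoccupied and 36.8% at occupied members elsewhere. The part of repeated sequence, and of read mapping in it, in the absence of peaks was not tested. The authors used a published blacklist for their coverage tracks, and whether it touched the peak lists is not given in the sources used here.

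**Figure D2:**
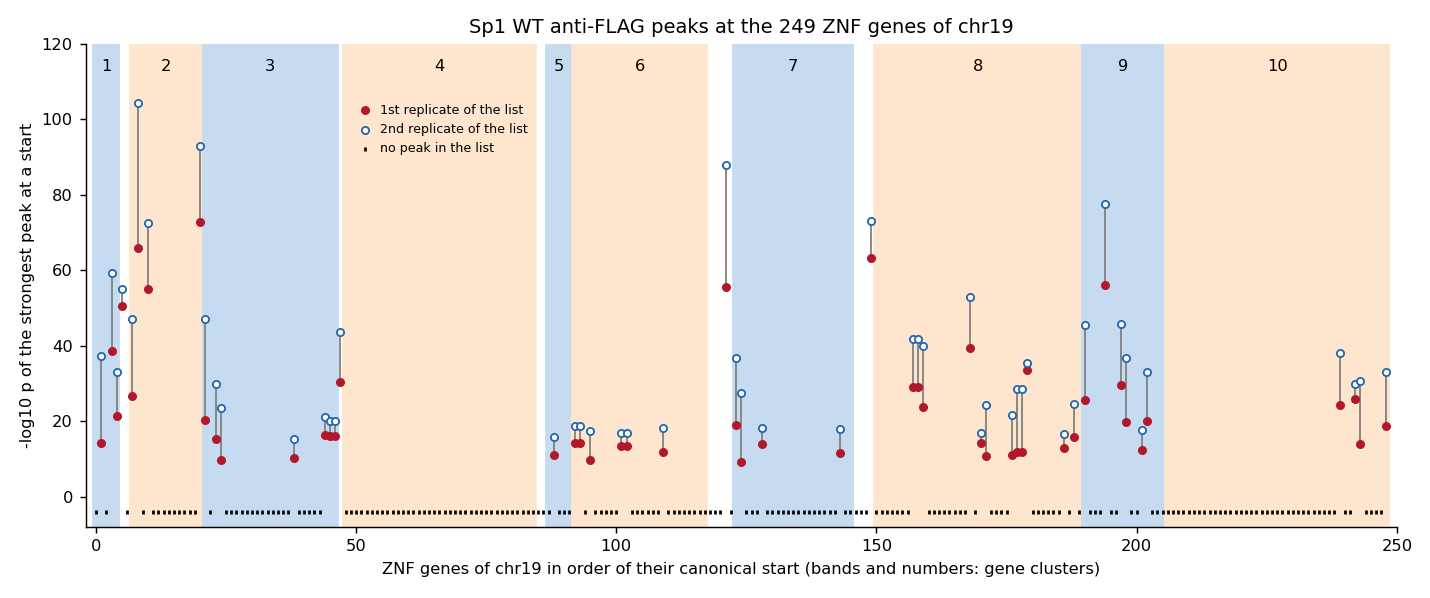
The 249 ZNF genes of chr19 in order of their canonical start (x axis, rank), with the −log10 p of the strongest Sp1 WT anti-FLAG peak at a start in each of the 2 replicates of the list (red and open blue points joined by a line) and ticks for genes without a peak. Numbered bands are the 10 gene clusters, and cluster 4 holds ticks only.

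The other lists kept to the clusters in different ways. Cluster 6 on 19q had 6 members in the Sp1 WT list, 2 in the Sp1 DBD list, 2 in the CTCF DBD list and 0 in the EWS IDR-Sp1 DBD list and in all 8 V5 lists. Cluster 3 had 7 members with Sp1 WT, 1 with the Sp1 DBD, 0 with EWS IDR-Sp1 DBD and at most 2 in a V5 list. In cluster 8 the counts were 12, 9 and 6 for the 3 FLAG lists and 3 to 7 for V5. Cluster 9 was the only one with more members in the Sp1 DBD list (8) than in the Sp1 WT list (6), and EWS IDR-Sp1 DBD had 6 there. Cluster 2 held its count across lists, at 4, 3 and 3 with FLAG and 2 to 4 with V5. The differences between clusters rest on counts of 0 to 12 genes in 1 list each.

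**Figure D3:**
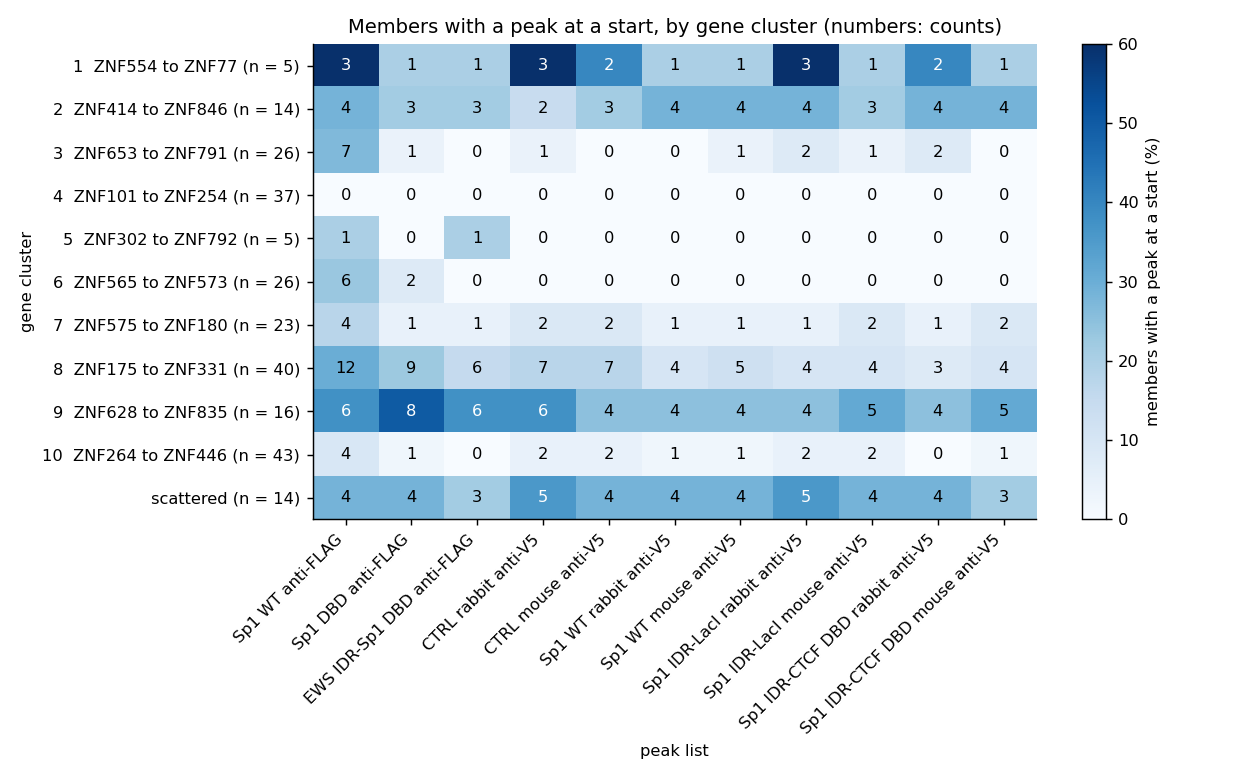
Members with a peak at a start in 10 gene clusters and the scattered genes (rows) and the 11 long peak lists (columns), as counts (numbers) and as percent of the members of the row (colour). Row 4 is 0 throughout, row 6 is 0 in the 8 V5 lists, and row 9 rises from 6 members in the first column to 8 in the second.

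Of the 107 other protein-coding genes inside the cluster spans, Sp1 WT occupied 18 (16.8%, interval 10.9 to 25), while it occupied 398 of the 1120 outside the spans (35.5%, interval 32.8 to 38.4). These are all chr19 genes whose symbol is not ZNF and a digit, so they can include zinc finger genes with other names. The spans differed, from 6 of 13 such genes in cluster 7 (46.2%) to 1 of 22 in cluster 10 (4.55%). Over all spans the same split was 10.3% against 23.8% for the Sp1 DBD and 9.35% against 23.2% for CTRL rabbit anti-V5. The spans together cover 14.2 Mb and held 57 Sp1 WT peaks, or 4.02 per Mb, against 9.76 per Mb in the remaining 44.4 Mb of the chromosome. The ZNF genes outside chr19 had 26.7% in the Sp1 WT list (71 of 266, interval 21.7 to 32.3), between the chr19 members and the other chr19 genes. They were above the members in the other FLAG lists too (15.8% and 10.5%) but below them in 6 of the 8 V5 lists, as in CTRL with the rabbit antibody (9.77% against 11.2%). The 19 chr19 genes with other zinc finger names (ZFP, ZSCAN, ZIM, ZIK, ZBTB, ZKSCAN and PEG3) had 4 (21.1%).

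Of the 249 members, 187 (75.1%) were in none of the 19 lists, as were 724 (59%) of the other chr19 genes. At least 1 of the 11 long lists held 61 members (24.5%) and 500 of the other genes (40.7%), and 1 member (ZNF256) was in the CTCF DBD list alone. Of the 61, 21 were in a single long list, and that list was Sp1 WT for 15 of them and the Sp1 DBD for 4. Another 18 were in 2 to 6 of the lists and 14 in 7 to 10. These counts have no background from the other chr19 genes, and Sp1 WT was the longest list. The 8 members in all 11 were ZNF333, ZNF557, ZNF558, ZNF57, ZNF574, ZNF699, ZNF787 and ZNF808, a share of 3.21% (1.64 to 6.21) beside 5.7% of the other chr19 genes (70).

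**Figure D4:**
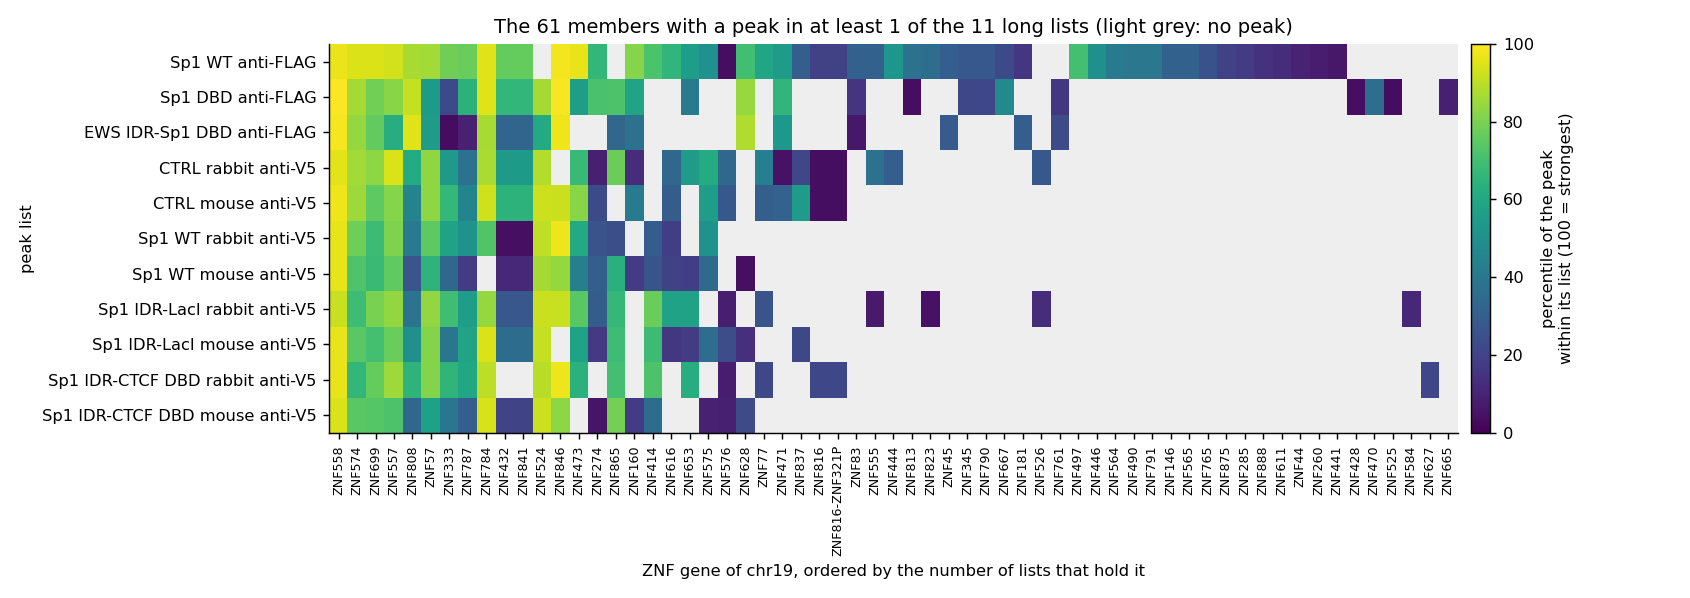
The 61 members with a peak in at least 1 of the 11 long lists (columns, ordered by number of lists and then by Sp1 WT rank) against those lists (rows), coloured by the percentile of the strongest peak within its list (100 is the strongest peak of the list). The 8 leftmost genes are coloured in every row, and a block of 15 genes further right is coloured in the top row alone.

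ZNF558, a KRAB zinc finger gene of cluster 2, ranked between 19 and 180 in all 11 long lists. Its Sp1 WT peak had −log10 p of 65.9 and 104 in the replicates and ranked 144 of 5151. The Sp1 DBD peak had 68.1 and 77.0 and ranked 19 of 3277, and the EWS IDR-Sp1 DBD peak had 56.3 and 64.4 and ranked 31 of 2535. In the V5 lists its lower replicate value ran from 57.5 in the Sp1 IDR-LacI line (rabbit) to 130 in CTRL (mouse). Summits of the 3 FLAG peaks were at -489, -463 and -429 bp from the nearest annotated start of the gene, in an annotated intron, and the start of MBD3L1 on the opposite strand was also within 1000 bp.

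ZNF57, ZNF699 and ZNF574 were in every long list too. ZNF57, in cluster 1, had Sp1 WT values of 38.5 and 59.2, Sp1 DBD values of 17.1 and 36.5 and EWS IDR-Sp1 DBD values of 17.0 and 18. Its summits were at -176, -115 and -180 bp from the start in these lists, and the lower V5 values ran from 25.6 to 57.7. ZNF699, loss of which causes a developmental syndrome in people, had 55.2 and 72.7 with Sp1 WT and 26.6 and 35.4 with the Sp1 DBD. ZNF574, without a GC box in its printed sequence, had 55.5 and 87.8 with Sp1 WT, 32.3 and 44.9 with the Sp1 DBD and 27.5 and 40.7 with EWS IDR-Sp1 DBD. For all 3 genes the lower Sp1 WT replicate was above the lower replicate of both other constructs, on a scale that depends on the depth of each library.

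The highest Sp1 WT value among members was at ZNF846, at the far end of cluster 2, with 72.9 and 93.1 (rank 95). That peak was 5742 bp wide and lay over a start upstream of the canonical one, and a second peak of 50.9 and 72.4 lay over another. Neither lay within reach of the canonical start, and the gene left the count when canonical starts alone were used. ZNF473, whose protein takes part in the 3′ end processing of histone mRNA, had 63.3 and 73.0 with Sp1 WT and 20.7 and 17.4 with the Sp1 DBD, and was absent from the EWS IDR-Sp1 DBD list. ZNF784 had 56.0 and 77.7, ZNF557 50.7 and 55.0, ZNF808 39.5 and 52.9 and ZNF160 33.7 and 35.4. ZNF160 had the closest replicates of these genes, and ZNF784 was the furthest apart of the last 4.

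By their medians, peaks at members were narrower than peaks at other chr19 starts in every long list. They were lower in rank in every long list but that of the Sp1 DBD. Sp1 WT had 48 peaks at members and 348 at other genes alone, with median −log10 p of 18.8 and 23.3 and median widths of 869 and 1070 bp. The median member peak stood at percentile 50.3 of its list and the median other peak at 64.5. In the Sp1 DBD list the order was the other way, with percentiles of 64.1 and 56.9 and medians of 20.1 and 17.8. For EWS IDR-Sp1 DBD they were 53.4 and 56.5. All 8 V5 lists placed the members lower, most in the Sp1 WT line with the mouse antibody (34 against 66.4) and least in the Sp1 IDR-CTCF DBD line with the rabbit antibody (66.3 against 67.8).

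Member peaks lay close to starts. The median Sp1 WT summit was at -97.5 bp from the nearest annotated start, with quartiles at -165 and 49 bp, and 34 of 48 (70.8%) were within 200 bp. At other chr19 genes the median was -88 bp and 55.7% were within 200 bp. By annotation, 18 of the 48 summits fell in introns, 13 in untranslated exons, 2 in noncoding exons, 1 in a coding exon and 14 outside annotated genes.

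Several peaks served more than 1 gene. Of the 51 members in the Sp1 WT list, 19 had a peak that also lay within 1000 bp of a start of another protein-coding gene (37.3%, interval 25.3 to 51), beside 171 of 416 other chr19 genes (41.1%). In 10 of the 19 the other gene was a member. ZNF432, which has a role in DNA repair, and ZNF841 shared 1 peak (29.0 and 41.8) because a long ZNF432 transcript begins beside the ZNF841 start. ZNF146 and ZNF565 shared another across opposite strands (14.3 and 18.7), as did ZNF490 and ZNF791 (16.1 and 20.2) and ZNF345 and ZNF790 (13.5 and 17.0). ZNF816 and the readthrough gene ZNF816-ZNF321P were counted apart but had the same peak. Members with a start on the opposite strand within 1000 bp of one of theirs were occupied by Sp1 WT in 12 of 31 cases (38.7%, interval 23.7 to 56.2), and the others in 39 of 218 (17.9%, interval 13.4 to 23.5). The 12 include ZNF146 and ZNF565, ZNF490 and ZNF791, and ZNF345 and ZNF790, pairs called from a shared peak, which the intervals treat as independent genes. The same split was not made for the other chr19 genes. The strongest of the 12 were ZNF558, ZNF473, ZNF574, ZNF557 and ZNF333.

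Without the N-terminal disordered region fewer members were found, in step with a shorter list. Of the 51 members in the Sp1 WT list, 23 (45.1%) were also in the Sp1 DBD list, and those 23 were 76.7% of the 30 members in the latter. Among other chr19 genes the shares were 57% of 416 and 85.3% of 278. The 28 members in the Sp1 WT list alone had weaker Sp1 WT peaks, with a median −log10 p of 14.1 (range 9.10 to 26.7), than the 23 in both, with 29.7 (12.5 to 72.9). These medians were not computed for the other chr19 genes, so the order is not a trait shown for members. The strongest of the 28 were ZNF414 (26.7 and 47.1), ZNF497 (25.8 and 29.9), ZNF616 (23.8 and 40), ZNF77 (21.5 and 33.1) and ZNF444 (19.7 and 36.7), the last a SCAN domain gene. With both lists reduced to their 1332 strongest peaks, 14 members remained with Sp1 WT and 15 with the Sp1 DBD, of which 10 were in both and 4 and 5 in 1 alone. The 4 with Sp1 WT were ZNF160, ZNF333, ZNF473 and ZNF57, and all 4 were in the full Sp1 DBD list. The overlap of the reduced lists was not computed for the other chr19 genes, so these counts have no background.

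The 7 members in the Sp1 DBD list and not in the Sp1 WT list were ZNF428, ZNF470, ZNF524, ZNF525, ZNF665, ZNF761 and ZNF865. For ZNF524, whose protein binds telomeric repeats, the Sp1 DBD values were 32.4 and 38 and the EWS IDR-Sp1 DBD values 18.5 and 20.3. It was in all 8 V5 lists, with lower replicate values of 46.8 to 91.6. ZNF865 had 23.1 and 25.4 with the Sp1 DBD, 14.2 and 13.5 with EWS IDR-Sp1 DBD and 12.2 to 43.4 in 7 V5 lists. Both are in cluster 9, and the ZNF524 peaks also lay at a start of FIZ1. The other 5 had Sp1 DBD values of 9.34 to 13.5 in the lower replicate and were in no V5 list.

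The authors' differential tables, made from tracks that average the replicates, divide each site into common stretches and stretches where either protein has more signal. Against the Sp1 DBD, common regions lay at 50 members (20.1%) beside a background of 32.6% of the other chr19 genes, regions with more Sp1 WT at 27 members (10.8%) beside 26.5%, and regions with more Sp1 DBD at 8 (3.21%) beside 3.42%. A gene can have more than one kind. Among the 28 members in the Sp1 WT list alone, 17 (60.7%) had a region with more Sp1 WT and 21 (75%) had a common region, beside 135 (75.4%) and 118 (65.9%) of the 179 other chr19 genes in that list alone. Among the 23 in both lists, 8 had a region with more Sp1 WT (34.8%) and 6 one with more Sp1 DBD (26.1%), while 160 (67.5%) and 29 (12.2%) of the 237 other chr19 genes in both lists did. ZNF473 had the highest log10 likelihood ratio of all members for Sp1 WT, at 4.23. ZNF557 had regions with more Sp1 DBD at 2.44 and 1.10, at the ends of a common one.

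ZNF524 and ZNF865 were absent from the Sp1 WT list but had regions with more Sp1 WT than Sp1 DBD, at ratios of up to 2.26 for ZNF524 and 1.58 for ZNF865. Against EWS IDR-Sp1 DBD the highest ratios there were 4.96 and 6.75. Among other chr19 genes in the Sp1 DBD list alone, 24 of 41 (58.5%) had such a region, against these 2 of 7 members (28.6%). All 7 members and all 41 other genes had common regions. Among the 7 members ZNF470 alone had a region with more Sp1 DBD (1.73), beside 8 of the 41 other genes (19.5%).

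Of the 21 members in the EWS IDR-Sp1 DBD list, 19 were in the Sp1 DBD list (90.5%) and 18 in the Sp1 WT list (85.7%), beside 80.4% and 82.2% of the 214 other chr19 genes there. The 2 outside the Sp1 DBD list were ZNF181 and ZNF45. Conversely 18 of the 51 Sp1 WT members (35.3%) were in the EWS IDR-Sp1 DBD list, beside 42.3% of the other chr19 genes in the Sp1 WT list. In the differential table against Sp1 WT, common regions lay at 30 members (12%) beside a background of 19.6%, regions with more Sp1 WT at 45 (18.1%) beside 34.7%, and regions with more of the chimera at 1 beside 1.22%. That 1 was ZNF808, a repressor of MER11 elements with a role in pancreas development, at a ratio of 1.36 in a stretch next to a common region. The highest ratios for Sp1 WT were at ZNF473 (10.5), ZNF576 (9.76), ZNF865 (6.75) and ZNF77 (5.61).

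Endogenous Sp1, read with V5, was found at 34 members in at least 1 of the 8 lists (13.7%, interval 9.94 to 18.5) and at 9 in all of them (3.61%), beside 29% and 12.2% of the other chr19 genes. The 9 were the 8 members in all long lists and ZNF524. Of the 34, 29 (85.3%) were in the Sp1 WT FLAG list, near the 82% of other chr19 genes in a V5 list. The exceptions were ZNF524, ZNF526, ZNF584, ZNF627 and ZNF865, and 3 of them (ZNF526, ZNF584 and ZNF627) were in none of the 3 long FLAG lists. Those 3 were found with the rabbit antibody alone, with lower replicate values of 10.4 to 14.5. In the other direction 22 of 51 FLAG Sp1 WT members (43.1%, interval 30.5 to 56.7) were in no V5 list, and their median FLAG value was 13.5 beside 26.7 for the 29 that were. Such medians were not computed for the other chr19 genes. Of the other chr19 genes in the Sp1 WT FLAG list, 70.2% were in a V5 list, against 56.9% of the members.

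The rabbit and mouse antibodies overlapped in most members of a line. In CTRL 23 of 29 members were common to both (79.3%), in the Sp1 WT line 18 of 22 (81.8%), in the Sp1 IDR-LacI line 19 of 28 (67.9%) and in the Sp1 IDR-CTCF DBD line 14 of 26 (53.8%). The intervals of the first and the last overlapped, at 61.6 to 90.2 and 35.5 to 71.2. The same overlaps were not computed for the other chr19 genes, so they are not a result about the members.

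Most members of the CTRL V5 lists recurred in the other lines. Of the 28 members in CTRL rabbit anti-V5, 17 were also in the Sp1 WT line, 21 in the Sp1 IDR-LacI line and 17 in the Sp1 IDR-CTCF DBD line. Among other chr19 genes the shares were 82.2%, 85.6% and 84.4%, beside 60.7%, 75% and 60.7% of members, and the intervals for the first and last line did not overlap (42.4 to 76.4 for members in both, 77.2 to 86.3 and 79.6 to 88.3 for the others). With the mouse antibody 17, 18 and 17 of 24 members were shared (70.8%, 75% and 70.8%), beside 76.8%, 82.4% and 85.4% of the other genes. The mouse intervals overlapped in every line, so the separation, counted by gene, was seen with the rabbit antibody alone. The 28 rabbit members rest on 26 peaks, and the intervals treat genes that share a peak as independent. ZNF816 and ZNF816-ZNF321P were both missing from the Sp1 WT line, and ZNF432 and ZNF841 from the Sp1 IDR-CTCF DBD line. Shares by peak were not computed, so the separation may not hold with each peak counted once. ZNF414 was absent from both CTRL V5 lists and present in all 6 lists of the other lines, with lower values of 12.9 to 33.5. ZNF471 had the opposite record, present in both CTRL lists (9.64 and 17.0) and in no other V5 list. CTRL is a single line and each list a single value, so spread between lists of 1 condition could not be set against these changes.

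The CTCF DBD, which carries the zinc fingers of the insulator protein CTCF, met 4 members. At ZNF808 its peak (25.4 and 44.7) ranked 8 of 649, and the Sp1 IDR-CTCF DBD peak there (17.5 and 34.1) ranked 8 of 166. The summits were at -280 and -279 bp from the start, and the Sp1 WT summit was at -250 bp. ZNF146 and ZNF565 shared a weak peak (8.37 and 16.4), and ZNF256, in cluster 10, had 8.94 and 16.8 with no peak of Sp1 in any list. Among differential regions, ZNF256 had one with more CTCF DBD than Sp1 WT and one common to Sp1 WT and Sp1 IDR-CTCF DBD. It also had one with more Sp1 WT than EWS IDR-Sp1 DBD (1.22).

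Members occupied by Sp1 WT held more GC boxes than the unoccupied ones. In the 300-base window of the start, 78.4% of occupied members (40 of 51, interval 65.4 to 87.5) and 65.2% of unoccupied ones (129 of 198, interval 58.3 to 71.4) held at least 1, beside 61.3% of all protein-coding genes. At least 3 boxes were present in 29.4% of occupied and 10.6% of unoccupied members. Other chr19 genes had the same order, with at least 1 box at 81.7% of occupied and 58.4% of unoccupied genes. At least 3 were at 34.6% and 18.5% of them. Within 500 bases to either side, the share of members occupied rose from 6.45% with 0 boxes (2 of 31) and 8.57% with 1 (6 of 70) to 17.4% with 2 to 3 (15 of 86), 40.6% with 4 to 5 (13 of 32) and 50% with 6 or more (15 of 30). For other chr19 genes the same steps were 9.57%, 23.9%, 33.1%, 47.5% and 49.3%. Members with 1 box lay below the other genes beyond their intervals (3.99 to 17.5 against 18.2 to 30.7), as did those with 2 to 3 (10.9 to 26.8 against 28 to 38.6), while the intervals overlapped at 0, at 4 to 5 and at 6 or more. The members counted here include the 37 of cluster 4, which had no peak and a median of 1 box within 500 bases. These shares were not computed without that cluster, so its part in the gaps was not tested. Occupied members without a box in the start window included ZNF557, ZNF473, ZNF444 and ZNF260. Around the Sp1 WT summits, 38 of 48 member peaks (79.2%) and 251 of 348 other peaks (72.1%) had a box within 100 bp.

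**Figure D5:**
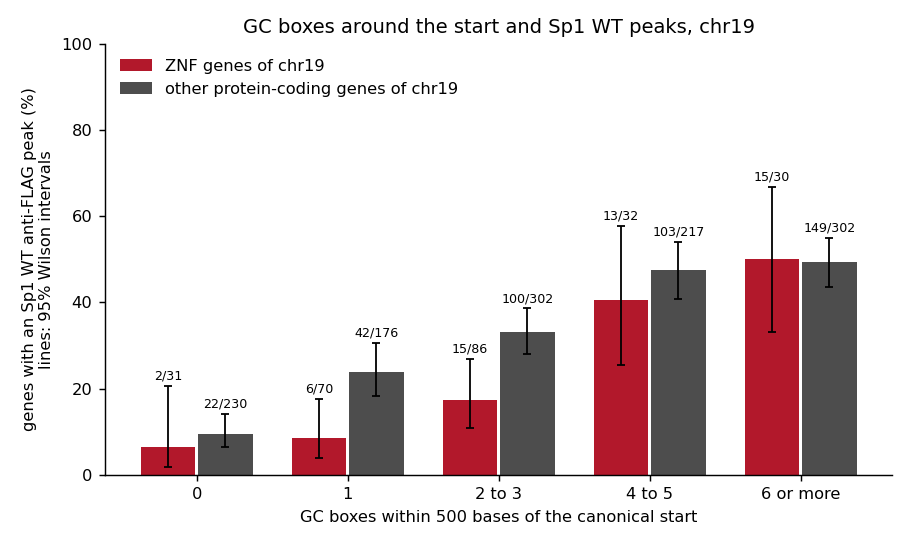
Share of chr19 genes with an Sp1 WT anti-FLAG peak (percent, y axis) by the number of GC boxes (GGGCGG on either strand) within 500 bases of the canonical start (x axis), for ZNF genes (red) and other protein-coding genes (grey), with counts and 95% Wilson intervals. Red bars rise from 6.45% to 50% and meet the grey ones in the last group.

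A fixed list of 12 genes whose products work with KRAB zinc finger proteins in silencing was chosen from general knowledge of the pathway. Sp1 WT had a peak at 8 of them, where 23.7% of all protein-coding genes had one: TRIM28, SETDB1, CBX1, CBX3, CBX5, MORC3, TASOR and UHRF1. Their −log10 p in the lower replicate ran from 8.88 at TASOR, of the HUSH complex, to 53.4 at CBX3, which encodes a heterochromatin protein. The Sp1 DBD list held MORC3 alone, and the EWS IDR-Sp1 DBD list held CBX3 and UHRF1, where 16.1% and 11.1% of all protein-coding genes were occupied. TRIM28, the shared corepressor and itself a chr19 gene, had a peak with Sp1 WT (16.2) and in all 8 V5 lists but in neither of the other FLAG lists. ATF7IP, MPHOSPH8, PPHLN1 and DNMT1 were in no list. With 12 genes, the counts were not tested.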

How the data were processed

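CUT&RUN libraries from 38 samples entered as 19 peak lists and 6 tables of differential regions. Per the paper's methods and the submitters' processing notes, Cutadapt 2.6 trimmed the reads, Bowtie2 2.3.5.1 placed them on hg38, and duplicates were dropped by SAMtools 1.9. MACS3 (given as 2.2.7.1) called peaks in each replicate over merged controls, and those whose irreproducible discovery rate (IDR) was 0.1 or less entered a list. The −log10 p-values of each peak and replicate are the authors'. The deposited score used for stricter lists is the −log10 of the global IDR. The authors computed log10 likelihood ratios for differential regions from replicate-averaged tracks. The listed p equals the smaller replicate value, and the order of the replicates is not given in the sources used here.

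Peaks were joined to protein-coding transcript starts of GENCODE 44 in Python 3.11.15 with pandas 2.3.3, and GC boxes were counted in hg38 with pysam 0.24.0. Wilson intervals came from SciPy 1.17.1. The joining step was tested on simulated data and against bedtools 2.31.1. The members and lists were chosen with earlier results of these data known. Genes named by rule were the 10 with the highest Sp1 WT values, up to 10 in the most lists, the top 5 in 1 of the Sp1 WT and Sp1 DBD lists, the top member of each cluster, those in short FLAG lists and the top 5 beside an opposite start. Others were named after their values were seen. Read depth was not analysed here.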

Additional observations from a re-analysis of the deposited data

How the results depend on the processing

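Peak lists made from both replicates allow no replicate to be left out. No paired analysis was possible because each list was made from both replicates and no result came from a test. In all 88 pairs of a long list and an alternative the share of members was below that of the other chr19 genes. The 11 pairs without control peaks repeat the lists as deposited. An IDR of at most 0.01 left 25 members for Sp1 WT (275 other chr19 genes), 15 for the Sp1 DBD (146), 7 for EWS IDR-Sp1 DBD (77), 17 for CTRL rabbit anti-V5, 12 for Sp1 WT mouse anti-V5 and 1 for the CTCF DBD (1), 0 other genes for Sp1 IDR-CTCF DBD, 12 members with Sp1 WT alone and 2 with the Sp1 DBD alone. At 0.05 Sp1 IDR-CTCF DBD kept 3 other genes. Lists of equal length (1332 peaks) left 14 members for Sp1 WT (181 other genes), 15 for the Sp1 DBD (147), 11 for EWS IDR-Sp1 DBD (139) and 16 for Sp1 IDR-LacI rabbit anti-V5, and 4 with Sp1 WT alone. Counts with 1 protein alone were not made for the other chr19 genes at these settings. Within 5000 bp the other genes were 24 for the CTCF DBD and 10 for Sp1 IDR-CTCF DBD, which had 2 by canonical starts. At 5000 bp Sp1 WT gained the members ZNF101, of cluster 4, and ZNF324. A cluster gap of 250 kb gave 3 clusters with 0 Sp1 WT members, and the cluster that holds ZNF101 then had 8 members, ZNF101 included. The longer box GGGGCGGGG was at 47.1% of members in the Sp1 WT list and 20.7% of the others (36.3% and 21.3% of other chr19 genes), and within 500 bases GGGCGG was at 96.1% and 85.4% (94.7% and 74.4%). Summits and 500 bp moved no count by over 1.5 times. Leaving out peaks that overlap the CTRL anti-FLAG or SNAP-NLS lists could change no count, because those lists hold 0 peaks on chr19. Canonical starts alone dropped ZNF432, ZNF790, ZNF83, ZNF846 and ZNF875 from Sp1 WT. Read numbers were not analysed here, and absence from a list is not absence of binding.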
